A study of Mus musculus with 142 samples.

Results

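The genes described are 9 transcription factors that pattern the hindbrain and the dorsal neural tube: the Iroquois genes Irx1, Irx2, Irx3 and Irx5, the paired-box genes Pax3 and Pax7, the Engrailed genes En1 and En2, and Gbx2. They were taken by name from the families of hindbrain and dorsal identity factors, with earlier results of these data known. The study itself lists Irx1, Irx2, Irx3, Irx5 and Gbx2 among brainstem factors in a gene module of these cultures. The counts between regions below are therefore a description and no independent test. The genes are 9 of the 54127 genes with a transcript in the quantification. A filter on low counts kept 8 of the 9, among 19769 genes tested, and Pax7 was the one that failed it. The samples are 142 RNA-seq libraries of mouse oligodendrocyte precursor cells (OPCs), the dividing glial cells that give rise to myelinating oligodendrocytes. Of these, 71 came from K27M pups, in which Cre under the human GFAP promoter (hGFAP-Cre) removed a stop cassette and switched on K27M, the mutant form of histone H3.3, from its own locus H3f3a (also called H3-3a). The other 71 came from littermate controls. All mice were on an FVB background. Brainstem and dorsal telencephalon (cortex, hippocampus and corpus callosum) were dissected in the first postnatal week, pooled over a litter by region and genotype, depleted of endothelial cells and microglia on a lectin, and panned on an antibody against PDGFRa. Each region and genotype was represented by 3 cultures, numbered 38, 41 and 42, which were harvested in growth medium (day 0) or after 1, 2 or 5 days in a differentiation medium with thyroid hormone. Each of the 16 groups (2 regions, 2 genotypes, 4 days) held 8 or 9 wells. Wells of one culture were replicates from the same pooled litters, but the fit treated wells as separate samples. It also took out the shift shared by cultures of one number within a region. The p-values below thus do not measure the full spread between cultures, least of all between the regions. For the 8 genes, counts on data summed per culture and day, fitted with the same culture term, are given beside them. The K27M base change itself is not resolved by transcript quantification, so the genotype rests on the labels.

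All 9 genes are used in the embryo before any oligodendrocyte exists. Iroquois factors are TALE homeodomain proteins that divide the neural plate and later mark progenitor domains of the neural tube. Gbx2 is expressed on the hindbrain side of the midbrain-hindbrain boundary, where it opposes the forebrain and midbrain factor Otx2, and En1 and En2 are the Engrailed homeodomain repressors that mark the territory on both sides of that boundary. Pax3 and Pax7 mark the dorsal neural tube, and Pax3 is also used by the neural crest. Genes of this kind have CpG-rich promoters and are classic targets of the Polycomb complex PRC2, which silences them with trimethylation of H3 lysine 27 in cells where they are not in use, and K27M is known to inhibit that complex.

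The genes lie on 5 chromosomes in GRCm38. Irx1 (chr13:71957921-71963723, minus strand) and Irx2 (chr13:72628820-72634198, plus strand) belong to one Iroquois cluster, and Irx3 (chr8:91798525-91802067, minus) and Irx5 (chr8:92357625-92376286, plus) to the other. Gbx2 (chr1:89927956-89931179, minus), En1 (chr1:120602418-120607992, plus) and Pax3 (chr1:78101267-78197134, minus) are on chromosome 1, En2 (chr5:28165694-28172166, plus) is on chromosome 5 and Pax7 (chr4:139737062-139833528, minus) on chromosome 4.

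RefSeq promoter windows of GRCm38.p6, which run from 250 bases before to 50 bases after an annotated start, matched 5 of the 9 genes (Irx2, Irx3, Pax7, En1 and Gbx2). The 3 below are shown because each adjoins or is overlapped by a non-coding gene whose level or change is described with its partner further on. Capitals mark CpG dinucleotides, and each window is written 5′ to 3′ on the strand of its gene. The windows are chr13:72628570-72628869 on the plus strand for Irx2, chr1:89931127-89931426 on the minus strand for Gbx2 and chr8:91801605-91801904 on the minus strand for Irx3.
Irx2: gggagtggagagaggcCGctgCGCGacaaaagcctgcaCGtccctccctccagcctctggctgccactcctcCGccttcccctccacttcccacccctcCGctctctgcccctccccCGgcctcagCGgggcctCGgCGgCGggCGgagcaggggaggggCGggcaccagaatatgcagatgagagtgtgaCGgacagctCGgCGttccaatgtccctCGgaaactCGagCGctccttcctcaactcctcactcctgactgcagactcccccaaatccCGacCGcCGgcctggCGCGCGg
Gbx2: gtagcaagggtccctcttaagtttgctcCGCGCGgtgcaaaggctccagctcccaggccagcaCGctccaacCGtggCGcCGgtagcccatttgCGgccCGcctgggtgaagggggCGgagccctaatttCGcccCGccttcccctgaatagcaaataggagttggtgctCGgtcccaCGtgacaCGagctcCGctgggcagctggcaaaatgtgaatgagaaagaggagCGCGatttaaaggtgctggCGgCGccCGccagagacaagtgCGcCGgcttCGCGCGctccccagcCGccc
Irx3: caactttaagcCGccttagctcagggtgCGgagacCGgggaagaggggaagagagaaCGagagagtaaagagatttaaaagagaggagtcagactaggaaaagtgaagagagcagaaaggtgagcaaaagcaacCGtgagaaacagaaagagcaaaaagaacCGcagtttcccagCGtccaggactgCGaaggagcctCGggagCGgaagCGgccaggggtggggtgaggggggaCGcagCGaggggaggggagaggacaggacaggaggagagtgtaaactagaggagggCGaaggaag
The Irx2 window holds 25 CpG, the Gbx2 window 27, the En1 window 23, the Pax7 window 17 and the Irx3 window 14, against a median of 7 over all 32851 windows of the same 300 bases. Of all windows, 84.5% held fewer CpG than that of Gbx2, 81.6% fewer than that of Irx2, 78.5% fewer than that of En1, 68.6% fewer than that of Pax7 and 63.7% fewer than that of Irx3. The homeodomain core TAATTA, which reads the same on both strands, was found in 0 of the 5 windows and in 5.29% of all windows.

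The libraries held 26.6 to 84.7 M read pairs assigned to transcripts (median 46.9 M), apart from 1 brainstem control well of culture 38 at day 5 with 455 M. The 6 brainstem control wells of cultures 41 and 42 at day 5 had 24905 to 33752 genes with a count, against 20157 to 29299 in the other 136 libraries. For the tested genes of the set, calls that rest on those wells are given with and without them. Calls of other genes below come from all libraries, and their dependence on those wells is not shown. Batches 1 and 2 held only telencephalon and batches 3 and 4 only brainstem, so that region and batch cannot be told apart, while K27M and control of one culture shared a batch. Culture 38 alone made up batch 1 in telencephalon and batch 3 in brainstem. Within a region, culture 38 and its batch therefore cannot be told apart either. Passage averaged 3.83 in brainstem K27M, 5.51 in brainstem control, 2.11 in telencephalon K27M and 2.14 in telencephalon control. The 5 OPC markers (Pdgfra, Cspg4, Sox10, Olig1, Olig2) summed to 766 to 3757 CPM over all libraries (CPM are counts scaled to a fixed library total), and all 5 were present in every group. Of the telencephalic factors, Emx2 averaged under 0.1 CPM in brainstem of both genotypes, against 4.18 CPM in telencephalon K27M and 3.34 CPM in telencephalon control. Emx1 averaged under 0.1 CPM in both regions and so does not separate them. Lhx2 averaged 0.185 CPM in brainstem K27M and 4.10 CPM in brainstem control. In telencephalon it averaged 10.9 CPM in K27M and 7.63 CPM in control.

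Irx1 and Irx2 were the most abundant of the set in brainstem and En2 in telencephalon control, in TPM, which are scaled by transcript length and to a fixed library total and can therefore be compared between genes. In brainstem the means ran in the order Irx1, Irx2, Irx5, Pax3, En2, Gbx2, Irx3, En1 and Pax7 in K27M and in the order Irx1, Irx2, En2, Irx5, Pax3, Irx3, En1, Gbx2 and Pax7 in control. In telencephalon En2 had the highest mean in both genotypes, but in K27M it was nearly level with Irx1 (1.01 against 1.00 TPM). By the median Irx1 stood above En2 in telencephalon K27M (0.985 against 0.872 TPM). Irx1 had a lowest, median and highest level of 4.77, 10.7 and 21.6 TPM over the 35 brainstem K27M libraries and of 2.32, 7.31 and 17.2 TPM over the 35 brainstem controls. In telencephalon Irx1 had 0.179, 0.985 and 2.78 TPM in K27M and 0.0609, 0.338 and 1.70 TPM in control (36 libraries each). Every brainstem library thus stood above every telencephalon library of its genotype. Many neighbours in the order did not differ beyond their spread: in brainstem K27M, En2 (1.27 ± 0.560 TPM), Gbx2 (1.1 ± 0.947 TPM) and Irx3 (0.720 ± 0.316 TPM) overlapped (SD, n = 35), and in telencephalon control so did Gbx2 (0.0932 ± 0.0656 TPM), Irx5 (0.0761 ± 0.0383 TPM) and Irx3 (0.0758 ± 0.0357 TPM) (SD, n = 36).

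**Figure D1:**
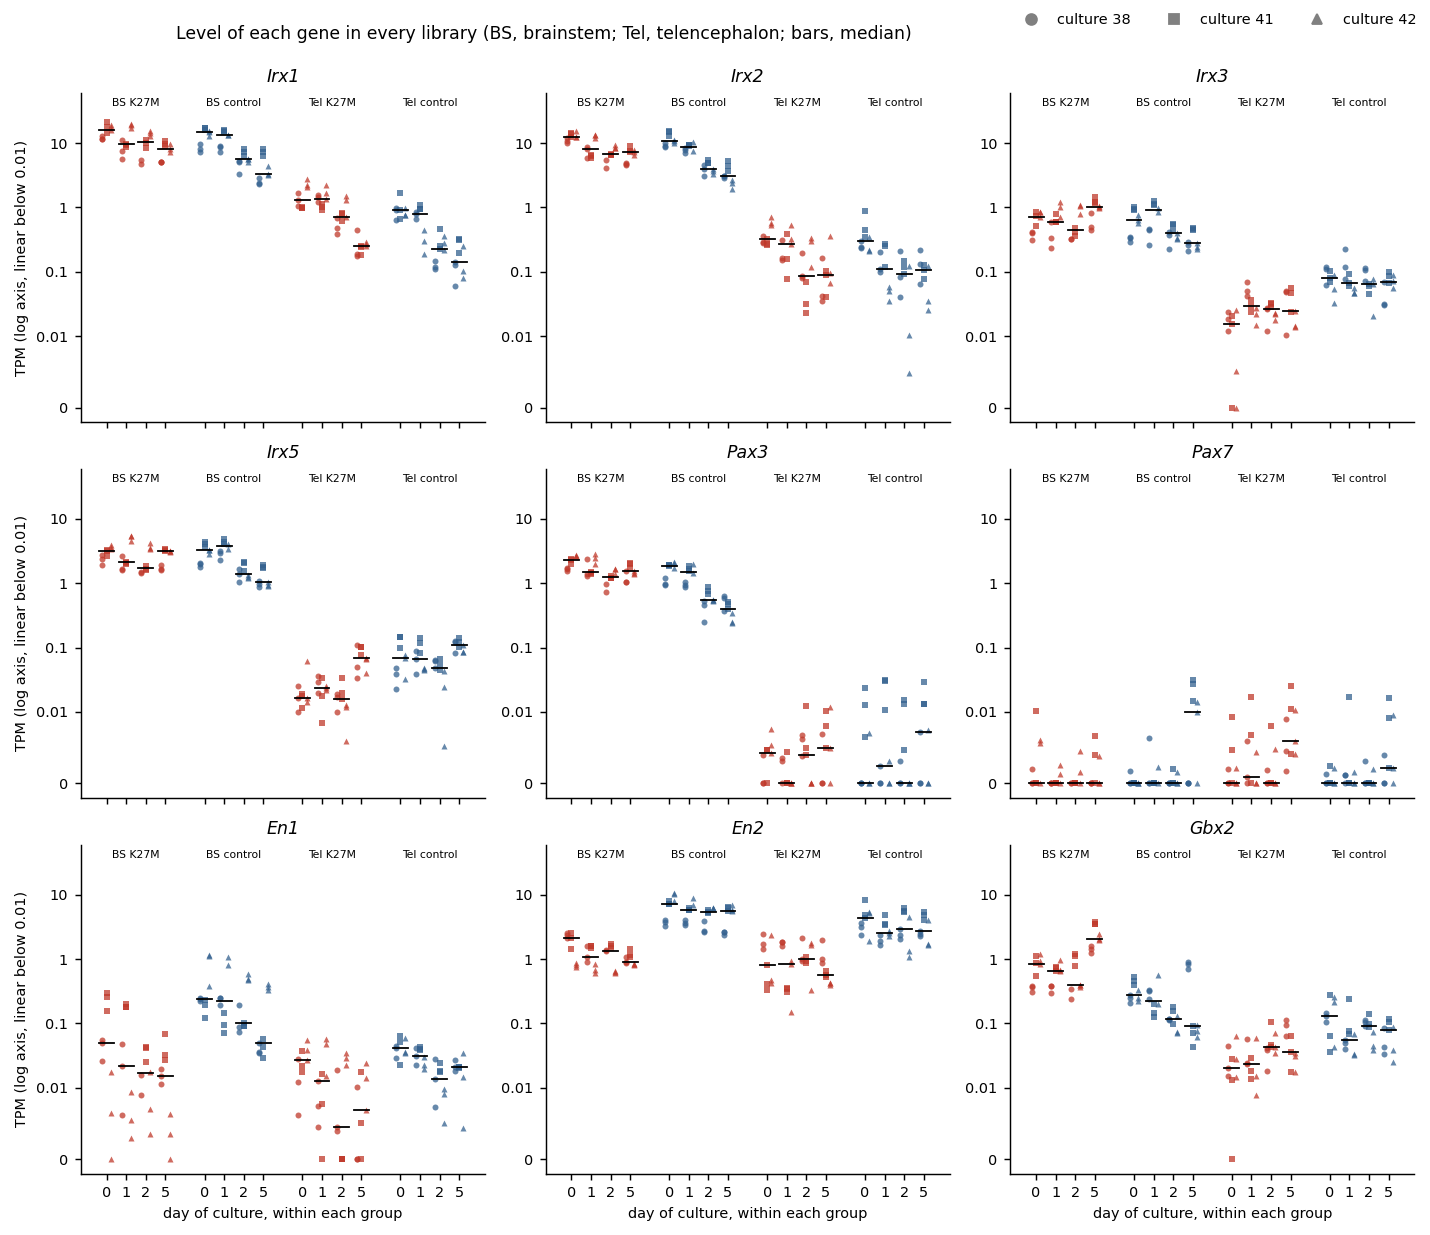
TPM of each of the 9 genes in all 142 libraries, on a log axis that is linear below 0.01, with the day of culture inside each of the 4 region and genotype groups, the culture as marker shape and the group median as a bar. The Irx genes and Pax3 stand higher in every brainstem group than in either telencephalon group, En2 is the only gene above 1 TPM in all 4 control telencephalon groups, and the highest Pax7 level is 0.0311 TPM.

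Pax7, which marks dorsal progenitors and is better known from muscle stem cells, was close to the limit of detection everywhere. Its counts summed to 20 in brainstem K27M, 54 in brainstem control, 51 in telencephalon K27M and 26 in telencephalon control, and it was at 0 in 24 of 35, 25 of 35, 15 of 36 and 21 of 36 libraries of those groups in the same order. Of the 54 counts in brainstem control, 49 came from day 5, where Pax7 averaged 0.0245 TPM in culture 41 and 0.00806 TPM in culture 42 and was 0 in culture 38. These are the wells with the most genes detected, and the part of that in the Pax7 counts was not tested. Pax7 entered the test only without the filter or in counts summed per culture. Without the filter it was higher at day 5 than at day 0 in brainstem control (log2 4.51, edgeR adjusted p = 5.83e-06), telencephalon K27M (2.93, adjusted p = 0.000419) and telencephalon control (2.39, adjusted p = 0.0132), and at day 5 it was lower in brainstem K27M than in brainstem control (-2.59, adjusted p = 0.00381) and than in telencephalon K27M (-2.82, adjusted p = 0.00124). Summed counts gave the same 5 calls, and without the filter alone the regions also differed in the day 5 effect of K27M (-3.66, adjusted p = 0.00335).

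Annotated transcripts of the tested genes were used in proportions within a few percentage points of each other in K27M and control of brainstem. Of the 2 Irx3 transcripts, that of 2748 bases held 87.0% of the Irx3 TPM in brainstem K27M, against 49.1% in telencephalon K27M. In control it held 88.1% in brainstem, against 52.9% in telencephalon, where the total was much lower. Irx1 was divided between its 2373-base form (53.3% in brainstem K27M and 50.3% in brainstem control) and one of 820 bases (41.4% in K27M and 44.1% in control). Irx2 was mostly the 2625-base form (57.8% in brainstem K27M and 55.2% in brainstem control), and a retained intron form held 24% in K27M and 23.3% in control. The 3863-base form was the main one of Pax3 in brainstem (58.0% in K27M and 54.8% in control). The 2450-base form held 97.5% of Irx5 in brainstem K27M and 97.1% in brainstem control, and En1 and En2 have 1 annotated transcript each. The spliced form held 66.5% of Gbx2 in telencephalon K27M and 78.2% in telencephalon control, with the retained intron form as the rest. These shares come from a model that divides reads between overlapping transcripts, and they were not tested.

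The first comparison asked how these genes differed between cultured cells of brainstem and of telencephalon. No uncultured cells were among the libraries, so what was kept or lost in culture cannot be read from it. The 4 Irx genes and Pax3 were higher in brainstem on all 4 days in both genotypes, as was Gbx2. En1 was higher on all 4 days in control and on days 0 and 1 in K27M, and En2 was higher only on day 1 of control by the test. In control cells 7, 8, 7 and 7 of the 8 genes were higher in brainstem at days 0, 1, 2 and 5, and 15.8%, 25.1%, 18.8% and 21.6% of all genes tested were higher in brainstem in those comparisons. In K27M cells the counts were 7, 7, 6 and 6 of 8, beside 10.8%, 15.6%, 8.59% and 15.5% of all genes. None of the 8 was lower in brainstem in any of the 8 comparisons. For Pax3 and En1 such a call was hardly possible. They averaged at most 0.0607 CPM (Pax3) and 0.180 CPM (En1) in a telencephalon group. Their counts in brainstem were mainly what kept them in the test. Their part in these counts of genes was thus largely fixed in advance. The median log2 fold change of the 8 genes was 3.34, 3.66, 4.42 and 3.16 in control and 5.13, 4.33, 4.31 and 4.90 in K27M at the 4 days, whereas the median over all genes lay between -0.03 and 0.04. Without the brainstem control wells of cultures 41 and 42 at day 5, the log2 fold changes of Irx1, Irx2, Irx3, Irx5 and Pax3 in control at that day lay between 2.65 and 6.93 and all passed. Summed per culture and day, 24 of 32 tests in K27M and 25 of 32 in control still passed, all of them higher in brainstem. A bulk library does not separate fewer cells of a type from less RNA per cell, and this holds for each result below.

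Pax3 had the widest contrast. At day 0 the lowest, median and highest Pax3 levels were 1.53, 2.30 and 2.76 TPM in brainstem K27M, against 0, 0.00431 and 0.00756 TPM in telencephalon K27M, with 9 libraries each. In control they were 0.952, 1.89 and 2.15 TPM in brainstem, against 0, 0 and 0.0237 TPM in telencephalon. Brainstem and telencephalon did not overlap on any day. The log2 fold change of Pax3 was 9.87 ± 0.32 (SE) in K27M (edgeR adjusted p = 4.72e-57) and 8.67 ± 0.30 in control (edgeR adjusted p = 4.47e-54) at day 0, and 8.36 ± 0.31 in K27M and 6.36 ± 0.29 in control at day 5. The telencephalon side of these ratios rests on few reads, 33 counts over 36 K27M libraries and 61 over 36 control libraries, so the size of the ratio is imprecise while the side is not. Of the 7 neural crest, Schwann cell and melanocyte markers, Foxd3 averaged under 0.1 CPM in every group. The list summed to 7.09 to 53.3 CPM in brainstem K27M, 6.77 to 55.5 CPM in brainstem control, 6.07 to 68.3 CPM in telencephalon K27M and 6.47 to 72.6 CPM in telencephalon control. Dct or Mitf led it. The 3 skeletal muscle progenitor genes Myf5, Myod1 and Myog each averaged under 0.1 CPM in every group.

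Irx2 and Irx5 also had wide contrasts. Irx2 ranged from 4.05 to 15.2 TPM (median 8.05) in brainstem K27M, against 0.0232 to 0.715 TPM (median 0.179) in telencephalon K27M. It ranged from 1.95 to 15.2 TPM (median 5.39) in brainstem control, against 0.00490 to 0.871 TPM (median 0.122) in telencephalon control. Its log2 fold change lay between 5.12 at day 0 and 5.87 at day 5 in K27M, and between 5.19 at day 0 and 5.91 at day 2 in control. Irx5 ranged from 1.42 to 5.46 TPM (median 2.77) in brainstem K27M, against 0.00591 to 0.111 TPM (median 0.0210) in telencephalon K27M. It ranged from 0.890 to 4.86 TPM (median 1.97) in brainstem control, against 0.00528 to 0.146 TPM (median 0.0679) in telencephalon control. Neither gene had a brainstem library that reached down to a telencephalon library. The Irx5 log2 fold change was 7.30 ± 0.27 in K27M and 5.39 ± 0.23 in control at day 0, and was smallest at day 5, at 5.06 ± 0.23 in K27M and 3.60 ± 0.21 in control (edgeR adjusted p = 1.12e-41 in K27M and 4.28e-31 in control).

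Irx3 was the least abundant of the 4 Iroquois genes in brainstem. It ranged from 0.232 to 1.43 TPM (median 0.720) in brainstem K27M, against 0 to 0.0704 TPM (median 0.0237) in telencephalon K27M. In control it ranged from 0.208 to 1.27 TPM (median 0.438) in brainstem control, against 0.0206 to 0.223 TPM (median 0.0691) in telencephalon control. Only in control did the ranges over all days touch, through 1 telencephalon well of culture 38 at day 1 (0.223 TPM). The Irx3 log2 fold change was 5.67, 4.15, 4.69 and 4.74 at days 0, 1, 2 and 5 in K27M and 2.97, 3.07, 2.83 and 2.35 in control. For Irx1 it was 3.53, 3.03, 3.72 and 4.73 in K27M and 3.45, 4.10, 4.84 and 4.88 in control, so the largest Irx1 contrast in both genotypes stood at day 5.

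Gbx2 divided the regions far more in K27M than in control. Over all days it ranged from 0.243 to 3.81 TPM (median 0.768) in brainstem K27M, against 0 to 0.113 TPM (median 0.0326) in telencephalon K27M, with no overlap. It ranged from 0.0433 to 0.890 TPM (median 0.198) in brainstem control, against 0.0248 to 0.281 TPM (median 0.0771) in telencephalon control, with overlap. Its log2 fold change was 5.14, 4.51, 3.93 and 5.27 at the 4 days in K27M (edgeR adjusted p = 1.34e-22 at day 5) and 1.23, 1.69, 0.92 and 2.25 in control (edgeR adjusted p = 3.59e-07 at day 5). The control value at day 5 rested on culture 38, whose log2 ratio was 3.79, against -0.47 in culture 41 and 0.83 in culture 42, and without culture 38 the fold change was 0.16 (edgeR adjusted p = 0.756). Without the day 5 wells of cultures 41 and 42 it was 3.85 (edgeR adjusted p = 1.47e-16). At day 2 the control contrast no longer passed without culture 38 (0.64, adjusted p = 0.193) or without culture 42 (0.88, adjusted p = 0.111), both adjusted by edgeR. In summed counts the control contrast of Gbx2 did not pass at day 0 (1.26, edgeR adjusted p = 0.192) or day 2 (0.92, edgeR adjusted p = 0.387).

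The 2 Engrailed genes behaved differently from the rest. En2 had 0.599, 1.08 and 2.55 TPM (lowest, median and highest) in brainstem K27M, against 0.153, 0.872 and 2.49 TPM in telencephalon K27M. It had 2.40, 5.80 and 10.5 TPM in brainstem control, against 1.09, 3.03 and 8.35 TPM in telencephalon control. The regions overlapped widely in both genotypes. The En2 log2 fold change was between 0.08 and 0.73 in K27M and between 0.60 and 0.82 in control, and passed only at day 1 of control (0.82 ± 0.32, edgeR adjusted p = 0.0218), a call that was lost without culture 42 (0.64, adjusted p = 0.104), in summed counts (0.88, adjusted p = 0.189) and with DESeq2 (0.85, adjusted p = 0.0700). With passage as a covariate that value turned to -0.33 (edgeR adjusted p = 0.421). Leaving out 1 culture brought En2 past the threshold at day 0 of K27M (1.05 without culture 42, adjusted p = 0.0172) and day 1 of K27M (1.11 without culture 38, adjusted p = 0.0204). It did so too at day 2 of control (1.31 without culture 41, adjusted p = 0.00403) and day 5 of control (1.05 without culture 41, adjusted p = 0.0206, and 0.87 without culture 38, adjusted p = 0.0378), as did leaving out the deepest library at day 5 of control (0.77, adjusted p = 0.0384). Without the day 5 control wells of cultures 41 and 42 that value was -0.11 (edgeR adjusted p = 0.910). En1 was sparse, at 0 to 0.296 TPM (median 0.0199) in brainstem K27M, against 0 to 0.0576 TPM (median 0.0135) in telencephalon K27M. It was at 0.0288 to 1.16 TPM (median 0.196) in brainstem control, against 0.00442 to 0.0631 TPM (median 0.0234) in telencephalon control. In control the En1 log2 fold change was 3.23, 3.22, 4.00 and 2.73 at the 4 days. Culture 42 carried most of it at day 5, where its log2 ratio was 4.54, against 1.21 in culture 38 and 0.91 in culture 41, and the call was lost without culture 42 (1.04, edgeR adjusted p = 0.136) and without the control wells of cultures 41 and 42 at day 5 (1.86, adjusted p = 0.0704). In K27M En1 passed at days 0 (2.05 ± 0.59, edgeR adjusted p = 0.00601) and 1 (1.83 ± 0.63, edgeR adjusted p = 0.0203), and both rested on culture 41, without which they were 0.22 (adjusted p = 0.854) and -0.62 (adjusted p = 0.537). Without culture 38 the day 1 value was 2.06 (adjusted p = 0.0647). At days 2 and 5, En1 in K27M passed without culture 42 (2.35, adjusted p = 0.0170, and 2.24, adjusted p = 0.0130) and not with it.

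**Figure D2:**
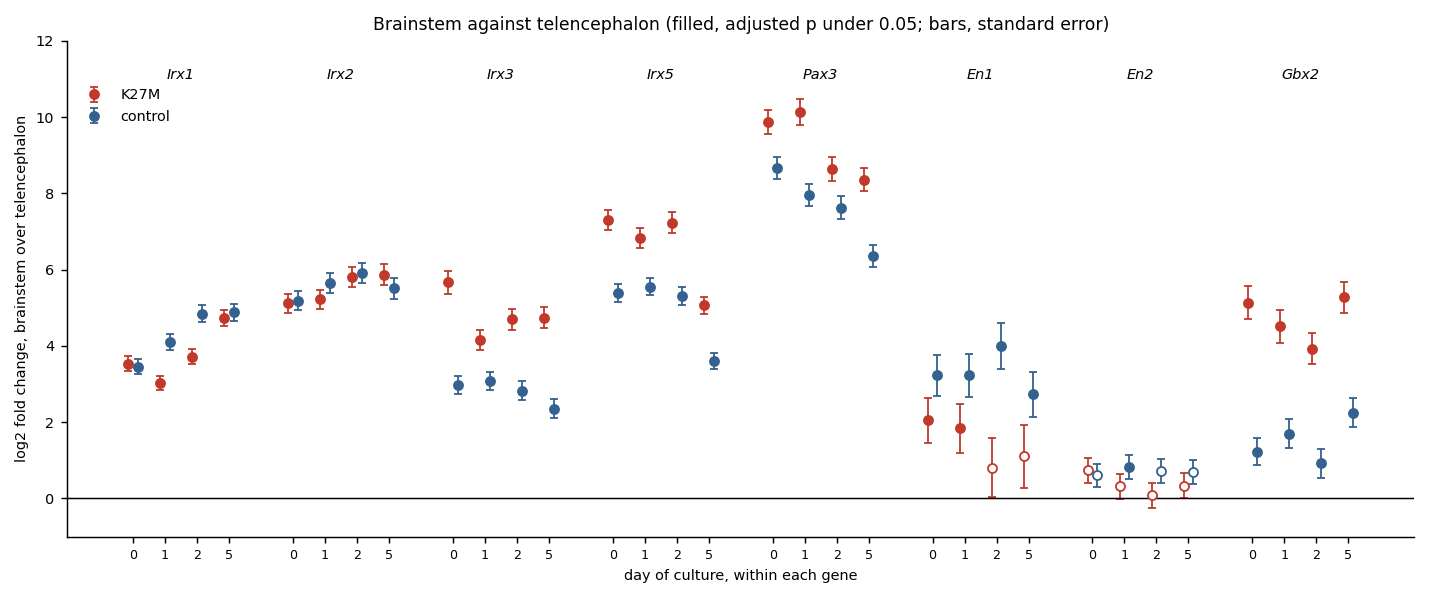
Log2 fold change of brainstem over telencephalon for the 8 tested genes at days 0, 1, 2 and 5, in K27M (red) and control (blue), with the standard error as bars and filled points where the adjusted p was under 0.05. Pax3 lies highest, between 6.36 and 10.13, Gbx2 is between 3.93 and 5.27 in K27M but between 0.92 and 2.25 in control, and En2 lies between 0.08 and 0.82.

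The second comparison asked what K27M did to these genes in brainstem cells. En2 and En1 were lower in K27M on all 4 days and Gbx2 was higher on all 4 days. Pax3 was higher on days 0, 2 and 5, and the Irx genes gathered at day 5, when all 4 were higher. At days 0, 1, 2 and 5, 4, 3, 5 and 8 of the 8 genes passed (2, 1, 3 and 6 higher and 2 lower each day), and 11.3%, 28.8%, 26.1% and 38.6% of all genes passed in either direction. Their median log2 fold change was 0.18, -0.18, 0.40 and 0.70, and that of all genes between -0.03 and 0.03. Summed per culture and day, 3 higher and 3 lower calls remained of 12 higher and 8 lower. The midbrain and hindbrain neuron markers summed to 2.51 to 6.39 CPM in brainstem K27M, against 1.39 to 3.87 CPM in brainstem control, with Th, Fev and Gabra6 under 0.1 CPM in both, and the 5 astrocyte markers had a median sum of 333 CPM in K27M against 138 CPM in control. Their part in these results, and that of the lower passage of the K27M wells, was not tested except by a fit with passage as a covariate.

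En2 was lower in K27M on every day, by amounts that differed between cultures. Its lowest, median and highest levels at day 0 were 0.758, 2.10 and 2.55 TPM in K27M, against 3.27, 7.31 and 10.5 TPM in control, and at day 5 they were 0.822, 0.896 and 1.42 TPM in K27M, against 2.40, 5.69 and 6.87 TPM in control. K27M and control did not overlap on any of the 4 days. En2 fell by 1.93 ± 0.32 at day 0, by 2.30 ± 0.33 at day 1, by 2.31 ± 0.34 at day 2 and by 2.67 ± 0.33 at day 5 on the log2 scale (edgeR adjusted p = 1.39e-06 at day 0 and 2.08e-11 at day 5). All 3 cultures were lower on every day, with the widest gap in culture 42, from -3.44 at day 0 to -3.28 at day 5. The gap was much smaller in culture 38 at day 0, with means of 2.34 TPM in K27M against 3.68 TPM in control. Without the control wells of cultures 41 and 42, the day 5 value was -1.85 (edgeR adjusted p = 0.000479). In counts summed per culture the calls held at days 1, 2 and 5, and day 0 just missed (edgeR adjusted p = 0.0552).

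En1 was lower in K27M as well, but its cultures disagreed. In culture 42 it averaged 0.00812, 0.00597, 0.00946 and 0.00327 TPM in K27M at days 0, 1, 2 and 5, against 0.881, 0.946, 0.516 and 0.368 TPM in control. In culture 41 it averaged 0.237 and 0.187 TPM in K27M at days 0 and 1, against 0.183 and 0.105 TPM in control, so these cultures went opposite ways at those days. The log2 fold change over all 3 cultures was -2.0 ± 0.52, -2.39 ± 0.54, -3.72 ± 0.61 and -3.02 ± 0.59 (edgeR adjusted p = 0.00359 at day 0 and 5.54e-07 at day 2). Without culture 42 it was -0.70 at day 0 (adjusted p = 0.355), -1.03 at day 1 (adjusted p = 0.0581) and -1.01 at day 5 (adjusted p = 0.117), and without culture 38 it was -1.60 at day 0 (adjusted p = 0.106). Without the control wells of cultures 41 and 42, the day 5 value was -2.21 (edgeR adjusted p = 0.0187). In counts summed per culture En1 did not pass on any day (edgeR adjusted p = 0.0540 at day 2).

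Gbx2 rose in brainstem K27M. At day 0 its levels were 0.305, 0.833 and 1.19 TPM (lowest, median and highest) in K27M, against 0.207, 0.276 and 0.523 TPM in control, and at day 5 they were 1.24, 2.04 and 3.81 TPM in K27M, against 0.0433, 0.0900 and 0.890 TPM in control. The groups overlapped at day 0 and stood apart at day 5. The log2 fold change was 1.26 ± 0.33, 1.32 ± 0.35, 1.96 ± 0.35 and 2.47 ± 0.34 at the 4 days (edgeR adjusted p = 0.00354 at day 0 and 1.66e-09 at day 5), and the summed counts passed at day 5 alone (edgeR adjusted p = 0.0108). At day 5 the means of cultures 38, 41 and 42 were 1.43, 3.62 and 2.15 TPM in K27M, against 0.811, 0.0678 and 0.0777 TPM in control, which gave log2 ratios of 0.42, 5.17 and 4.18. The low controls at day 5 were the wells of cultures 41 and 42 in which most genes were detected, and without those 6 wells the fold change was 0.82 (edgeR adjusted p = 0.0988). The day 0 call was lost without culture 42 (0.73, adjusted p = 0.273) and with passage as a covariate (0.74, adjusted p = 0.167), and the day 1 call without culture 41 (0.88, adjusted p = 0.148) and with passage as a covariate (0.79, adjusted p = 0.0892).

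**Figure D3:**
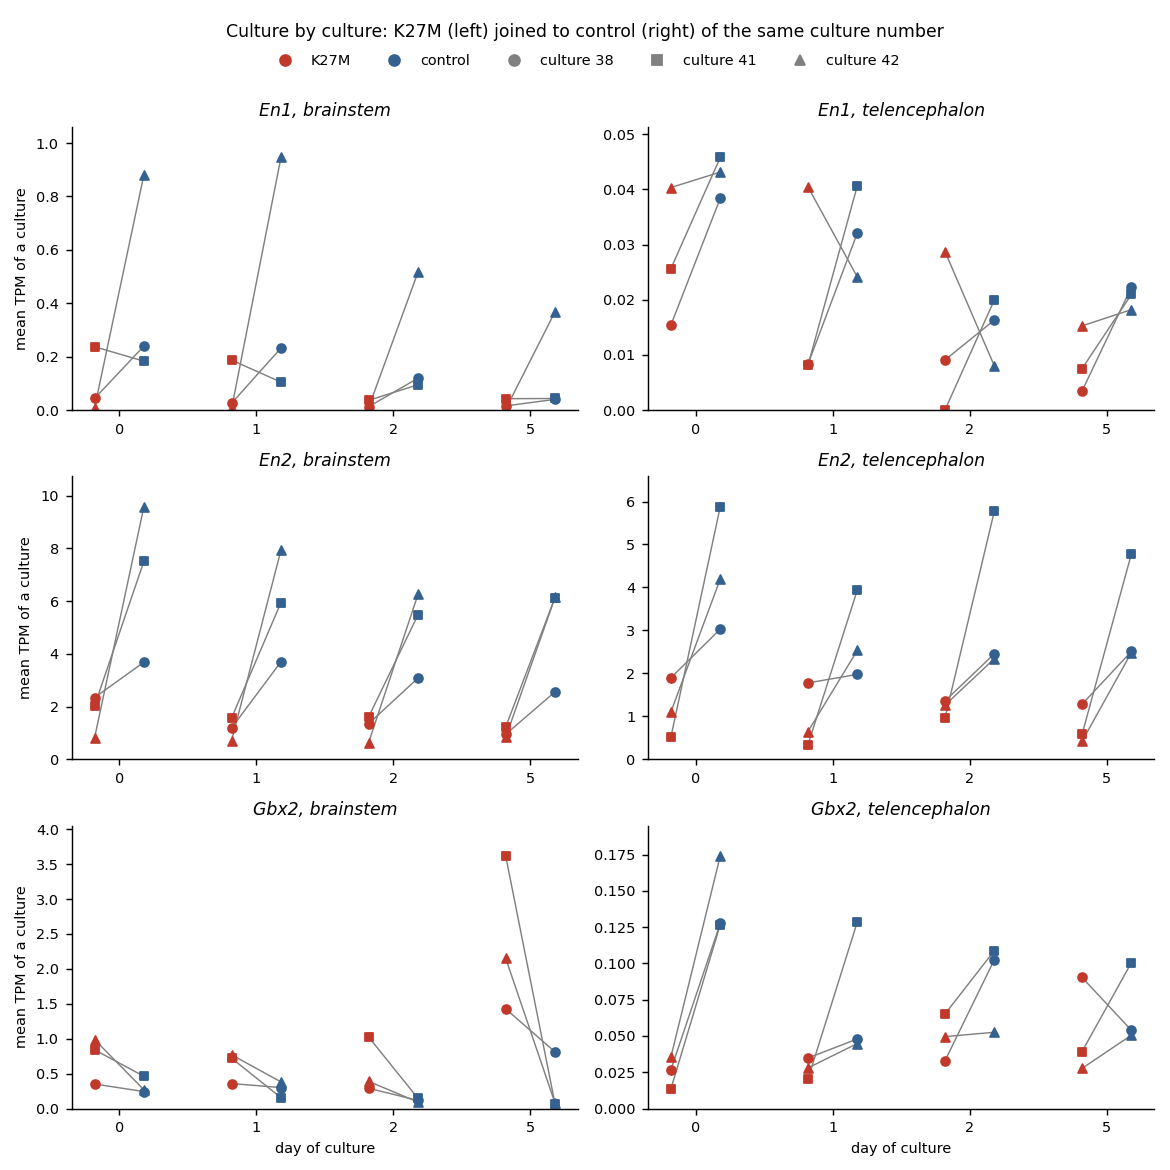
Mean TPM of En1, En2 and Gbx2 in each culture, brainstem on the left and telencephalon on the right, with K27M (red) joined to control (blue) of the same culture number on each day. En2 is lower in K27M in every culture of both regions, En1 in brainstem of culture 42 at day 0 is 0.00812 TPM in K27M against 0.881 TPM in control, and Gbx2 at day 5 of brainstem reaches 3.62 TPM in K27M of culture 41.

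Pax3 and the Irx genes were higher in brainstem K27M mainly late in the course. Pax3 at day 5 had 1.06, 1.55 and 2.09 TPM (lowest, median and highest) in K27M, against 0.237, 0.399 and 0.636 TPM in control, with no overlap. It rose by 0.50 ± 0.17 at day 0, 0.95 ± 0.18 at day 2 and 1.43 ± 0.18 at day 5 (log2, edgeR adjusted p = 0.0371 at day 0, 1.36e-05 at day 2 and 1.92e-11 at day 5), and 0.39 ± 0.18 at day 1 did not pass. The day 0 call was lost without culture 41 (0.52, adjusted p = 0.156) or culture 42 (0.46, adjusted p = 0.103) and in 7 further settings, and the day 2 call was lost in summed counts (0.92, edgeR adjusted p = 0.183). Irx3 at day 5 had 0.438, 1.00 and 1.43 TPM in K27M, against 0.208, 0.283 and 0.471 TPM in control, with a log2 fold change of 1.14 ± 0.21 (edgeR adjusted p = 3.94e-06) and the same sign in all 3 cultures. Irx1 rose by 0.69 ± 0.17, Irx2 by 0.67 ± 0.20 and Irx5 by 0.72 ± 0.18 at day 5, also in all 3 cultures, and of the 4 Irx genes only Irx3 passed in summed counts (edgeR adjusted p = 0.0292). Without the control wells of cultures 41 and 42, Irx2 (0.55, adjusted p = 0.171) and Irx5 (0.66, adjusted p = 0.0525) no longer passed. Pax3 (0.87, adjusted p = 0.00416), Irx1 (0.89, adjusted p = 0.00644) and Irx3 (0.86, adjusted p = 0.0373) still passed without those wells, Pax3 at a smaller size. At days 0 to 2 the Irx log2 fold changes lay between -0.40 and 0.51, and Irx1 at day 2 (0.51 ± 0.18, edgeR adjusted p = 0.0249) was the only one of them to pass, which it did not without culture 42 (0.04, adjusted p = 0.898) or culture 41 (0.50, adjusted p = 0.0714). The days before day 5 were divided by culture: without culture 42, Irx5 (-0.89, adjusted p = 1.2e-05) and Irx1 (-0.44, adjusted p = 0.0250) were lower in K27M at day 1, and without culture 38, Irx2 (0.88, adjusted p = 0.00605), Irx3 (0.75, adjusted p = 0.00595) and Irx5 (0.77, adjusted p = 0.00232) were higher at day 2. Pax3 passed at day 1 without culture 41 (0.67, adjusted p = 0.0382).

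In telencephalon, where these genes were low, K27M went with lower levels of most of them. En2, Irx3 and Irx5 were lower in K27M on all 4 days, Gbx2 on days 0 and 1 and Pax3 on day 1, while Irx1 was higher on days 1, 2 and 5, and Irx2 and En1 did not pass on any day. At days 0, 1, 2 and 5, 4, 6, 4 and 4 of the 8 genes passed (0, 1, 1 and 1 higher, 4, 5, 3 and 3 lower), beside 15.7%, 28.8%, 32.3% and 22.3% of all genes in either direction. The median log2 fold change of the 8 was -1.33, -1.43, -0.78 and -0.65, whereas that of all genes lay between -0.01 and 0.03. In summed counts 1 higher and 8 lower calls remained of 3 higher and 15 lower. The astrocyte markers had a median sum of 168 CPM in K27M against 685 CPM in control. Their part in these results was not tested.

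Irx3 and Irx5, neighbours in one cluster, were lower together. Irx3 at day 0 had 0, 0.0156 and 0.0255 TPM (lowest, median and highest) in K27M, against 0.0326, 0.0786 and 0.117 TPM in control, with no overlap. Its log2 fold change was -2.63 ± 0.32, -1.38 ± 0.27, -1.62 ± 0.30 and -1.24 ± 0.29 at the 4 days (edgeR adjusted p = 2.69e-10 at day 0 and 0.000648 at day 5), with the same sign in every culture. Irx5 at day 1 had 0.00838, 0.0233 and 0.0361 TPM in K27M, against 0.0396, 0.0674 and 0.139 TPM in control, again without overlap. The log2 fold change of Irx5 was -1.84, -1.67, -1.60 and -0.74 at the 4 days, and its day 5 call (edgeR adjusted p = 0.0210) was lost without culture 38 (-0.58, adjusted p = 0.228). In summed counts both genes passed at days 1 and 2 and Irx3 at day 0, and the calls lost were Irx5 at day 0 (edgeR adjusted p = 0.0595), Irx3 at day 5 (edgeR adjusted p = 0.0848) and Irx5 at day 5 (edgeR adjusted p = 0.353). These are levels of a few reads per library: Irx3 had 212 counts over 36 K27M libraries and 661 over 36 controls, and Irx5 had 224 and 565.

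En2, the most abundant of these genes in telencephalon control, was lower in K27M in all 3 cultures on every day. Its lowest, median and highest levels were 0.400, 0.558 and 1.96 TPM in K27M at day 5, against 1.66, 2.77 and 5.43 TPM in control, with a slight overlap. The log2 fold change was -2.06 ± 0.33, -1.79 ± 0.33, -1.68 ± 0.32 and -2.30 ± 0.33 at the 4 days (edgeR adjusted p = 8.85e-07 at day 0 and 1.55e-08 at day 5), and summed counts passed at days 1, 2 and 5 (edgeR adjusted p = 0.0367, 0.0492 and 0.0105). The cultures differed in size: at day 1 the En2 means were 1.78 TPM in K27M against 1.98 TPM in control in culture 38. In culture 41 they were 0.338 against 3.94 TPM, and in culture 42 0.646 against 2.53 TPM. Gbx2 at day 0 had 0, 0.0202 and 0.0638 TPM in K27M, against 0.0364, 0.132 and 0.281 TPM in control, and fell by 2.65 ± 0.45 at day 0 and by 1.49 ± 0.47 at day 1 (edgeR adjusted p = 4.34e-06 and 0.00912). The day 1 call of Gbx2 was lost without culture 41 (-0.91, adjusted p = 0.219) or culture 42 (-1.57, adjusted p = 0.0521), and neither day passed in summed counts. At day 2 the Gbx2 value of -1.04 just missed (edgeR adjusted p = 0.0550), and it passed with RLE size factors (adjusted p = 0.0437) and without the deepest library (adjusted p = 0.0486). Pax3 at day 1 rested on 4 counts in K27M and 19 in control (log2 fold change -1.78 ± 0.63, edgeR adjusted p = 0.0228), and without culture 41 the value turned to 0.40 (adjusted p = 0.825).

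Irx1 went the other way. At day 2 it had 0.383, 0.705 and 1.51 TPM (lowest, median and highest) in telencephalon K27M, against 0.112, 0.226 and 0.456 TPM in control, which overlap in their tails. Its log2 fold change was 1.02 ± 0.19 at day 1, 1.63 ± 0.21 at day 2 and 0.83 ± 0.26 at day 5 (edgeR adjusted p = 1.05e-05, 5.54e-10 and 0.0111), and day 2 also passed in summed counts (edgeR adjusted p = 0.00701). The day 5 call was lost without culture 38 (0.63, adjusted p = 0.244) or culture 42 (0.60, adjusted p = 0.0841). Its cluster neighbour Irx2 had log2 fold changes of 0.32 to 0.59 that did not pass on any day, and culture 42 was higher in K27M (1.51 to 2.60) and culture 41 lower (-1.14 to -0.66) on all 4 days. Without culture 41, Irx2 was higher in K27M at day 0 (1.09, adjusted p = 0.00385), day 1 (0.98, adjusted p = 0.0132) and day 2 (1.28, adjusted p = 0.00529), and Irx1 passed at day 0 as well (0.62, adjusted p = 0.0388). En1 had log2 fold changes of -1.39 to -0.52 that did not pass, but did at days 1 (-2.10, adjusted p = 0.0158) and 5 (-2.21, adjusted p = 0.0371) without culture 42.

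**Figure D4:**
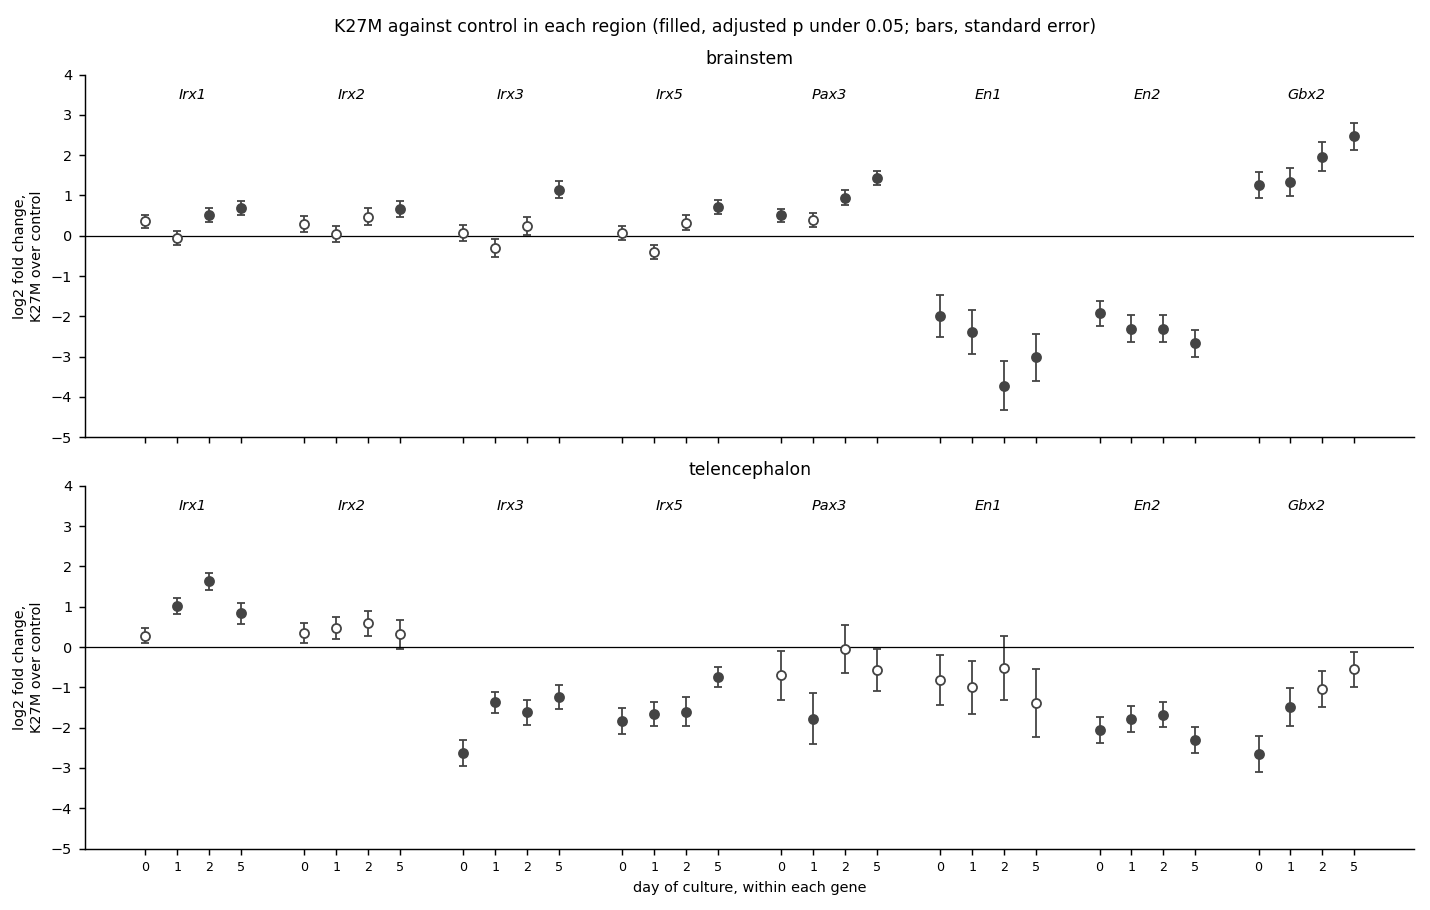
Log2 fold change of K27M over control for the 8 tested genes at days 0, 1, 2 and 5, in brainstem (upper panel) and telencephalon (lower panel), with the standard error as bars and filled points where the adjusted p was under 0.05. En2 lies between -2.67 and -1.68 in both panels, and Gbx2, Irx3 and Irx5 lie above 0 at day 5 in brainstem and below 0 at every day in telencephalon.

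The effect of K27M was then compared between regions, as the brainstem effect minus the telencephalon effect in the same fit. Gbx2, Irx3 and Irx5 differed on all 4 days, each with the higher K27M effect in brainstem. At days 0, 1, 2 and 5, 3, 5, 5 and 4 of the 8 genes passed (3, 4, 3 and 4 of them with the higher effect in brainstem), beside 7.25%, 35.8%, 14.1% and 29.7% of all genes. The 4 groups in this comparison are those of the 2 comparisons above, so it restates them as a difference and adds no samples. Summed per culture and day, 3 of the 17 calls passed, Gbx2 at days 1 (edgeR adjusted p = 0.0477) and 5 (edgeR adjusted p = 0.0491) and Irx3 at day 5 (edgeR adjusted p = 0.0118).

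The difference of Gbx2 was 3.91 ± 0.55, 2.82 ± 0.58, 3.01 ± 0.56 and 3.02 ± 0.55 on the log2 scale at days 0, 1, 2 and 5 (edgeR adjusted p = 1.93e-07 at day 0 and 5.03e-06 at day 5), with a positive sign in all 3 cultures on every day. At day 5 it was 0.20 in culture 38, 6.5 in culture 41 and 5.05 in culture 42, and without the brainstem control wells of cultures 41 and 42 it was 1.39 (edgeR adjusted p = 0.0684). Irx3 differed by 2.70 ± 0.39, 1.08 ± 0.35, 1.87 ± 0.37 and 2.38 ± 0.36, also positive in every culture, and Irx5 by 1.91 ± 0.36, 1.27 ± 0.35, 1.92 ± 0.40 and 1.46 ± 0.31. Without those wells the day 5 differences of Irx3 (2.11, edgeR adjusted p = 0.000478) and Irx5 (1.42, edgeR adjusted p = 0.00582) still passed. Irx5 at day 0 was lost without culture 41 (1.34, adjusted p = 0.0932) and Irx3 at day 1 without culture 42 (0.87, adjusted p = 0.0649). Pax3 differed at days 1 (2.17 ± 0.66) and 5 (2.00 ± 0.57), and both were lost without culture 41 (0.27, adjusted p = 0.967, at day 1 and 0.69, adjusted p = 0.920, at day 5), the second also without the brainstem control wells of cultures 41 and 42 (1.45, adjusted p = 0.0938). Irx1 had the lower effect in brainstem at days 1 (-1.08 ± 0.26, edgeR adjusted p = 0.000473) and 2 (-1.12 ± 0.28, edgeR adjusted p = 0.00202), the day 2 value being -0.64 without culture 38 (adjusted p = 0.265). En1 passed at day 2 alone (-3.20 ± 1.06, edgeR adjusted p = 0.0284), and its cultures ranged from -7.23 in culture 42 to 3.41 in culture 41, with -0.61 without culture 42 (adjusted p = 0.769) and -3.24 without culture 38 (adjusted p = 0.180). Without culture 41, En1 differed at days 0 (-3.42, adjusted p = 0.00584), 1 (-4.35, adjusted p = 0.000212) and 5 (-3.00, adjusted p = 0.0424), and without culture 38 Pax3 differed at day 2 (2.10, adjusted p = 0.0398). For En2, which was lower in K27M in both regions, the difference was 0.13 ± 0.44, -0.51 ± 0.45, -0.63 ± 0.45 and -0.37 ± 0.45 and did not pass on any day.

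Differentiation moved the genes in both directions, from day 0 to day 5. Irx1 and Irx2 fell in all 4 region and genotype groups, and Irx3 and Gbx2 rose in K27M of both regions. Irx5 rose in telencephalon of both genotypes and fell in brainstem control, Pax3 and En1 fell in brainstem of both genotypes, and En2 did not pass in any group. Of the 8 genes, 2 rose and 4 fell in brainstem K27M, and 0 rose and 5 fell in brainstem control. In telencephalon 3 rose and 2 fell in K27M, and 1 rose and 2 fell in control. Summed per culture and day, 1 rose and 1 fell in brainstem K27M, 0 and 3 in brainstem control, 2 and 2 in telencephalon K27M and 1 and 2 in telencephalon control. The calls lost were Irx2, Irx3, Pax3 and En1 in brainstem K27M, Irx5 and En1 in brainstem control and Gbx2 in telencephalon K27M (edgeR adjusted p = 0.0578 to 0.343). Without the day 5 wells of cultures 41 and 42, brainstem control still fell in Irx1 (-1.47), Irx2 (-1.14), Pax3 (-0.76), Irx5 (-0.64) and En1 (-2.07), and Gbx2 is given below. The share of all genes that passed was 72.3%, 75.6%, 75.6% and 75.1% in the same order of groups, so most genes changed over these 5 days, and the members' counts lay close to that background or below it. The 5 myelin markers rose over the same days in every group, for instance in brainstem K27M to a median sum of 32674 CPM at day 5, against 135 CPM at day 0, and their part in the values below was not tested.

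In telencephalon, Irx1 fell by 2.14 ± 0.21 in K27M and by 2.70 ± 0.23 in control (log2, edgeR adjusted p = 2.01e-17 in K27M and 3.48e-21 in control). Its median TPM was 1.31, 1.34, 0.705 and 0.25 in K27M and 0.916, 0.777, 0.226 and 0.143 in control at days 0, 1, 2 and 5. In brainstem Irx1 fell by 0.94 ± 0.17 in K27M and 1.27 ± 0.17 in control, and Irx2 fell by 0.86 ± 0.20 in K27M and 1.25 ± 0.20 in control. Pax3 fell by 1.32 ± 0.18 in brainstem control (edgeR adjusted p = 2.88e-11) and by 0.39 ± 0.17 in brainstem K27M (edgeR adjusted p = 0.0343), the K27M call being lost without culture 42 (-0.17, adjusted p = 0.411). Its median was 2.30, 1.5, 1.26 and 1.55 TPM in K27M and 1.89, 1.49, 0.556 and 0.399 TPM in control at the 4 days. En1 fell by 2.08 ± 0.58 in brainstem K27M and by 1.06 ± 0.47 in brainstem control, and these were lost without culture 41 in K27M (-1.20, adjusted p = 0.111) and, in control, without culture 38 (-0.70, adjusted p = 0.321) or without the deepest library (-0.99, adjusted p = 0.0597).

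Gbx2, Irx3 and Irx5 were the genes that rose. Gbx2 in brainstem K27M had medians of 0.833, 0.664, 0.401 and 2.04 TPM at days 0, 1, 2 and 5, and rose by 1.67 ± 0.32 from the first to the last (edgeR adjusted p = 1.44e-06), in all 3 cultures. In brainstem control the cultures disagreed, with log2 ratios of 1.89 in culture 38, -1.97 in culture 41 and -1.11 in culture 42, and the joint value of 0.47 ± 0.34 did not pass. Without culture 38 it was -1.56 (edgeR adjusted p = 1.93e-05), and it was 1.02 without culture 41 (adjusted p = 0.0127), 0.95 without culture 42 (adjusted p = 0.0304) and 2.05 without the day 5 wells of cultures 41 and 42 (adjusted p = 4.33e-08). Irx5 in telencephalon K27M had medians of 0.0167, 0.0233, 0.0159 and 0.0700 TPM at the 4 days and rose by 2.21 ± 0.32, against 0.0685, 0.0674, 0.0476 and 0.108 TPM and a rise of 1.11 ± 0.25 in telencephalon control (edgeR adjusted p = 5.97e-10 in K27M and 2.56e-05 in control). In brainstem control Irx5 fell by 0.68 ± 0.18. Irx3 rose by 1.66 ± 0.36 in telencephalon K27M and by 0.72 ± 0.21 in brainstem K27M, the second of which was lost without culture 41 (0.53, adjusted p = 0.0692). Gbx2 also rose in telencephalon K27M, by 1.54 ± 0.50, and not without culture 38 (1.03, adjusted p = 0.0671). Without culture 38, Irx3 fell by 0.60 in brainstem control (adjusted p = 0.0121) and rose by 0.60 in telencephalon control (adjusted p = 0.0464), and without culture 41 Gbx2 fell by 1.09 in telencephalon control (adjusted p = 0.0247). En2 fell by 0.86 in brainstem K27M without culture 42 (adjusted p = 0.0186).

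**Figure D5:**
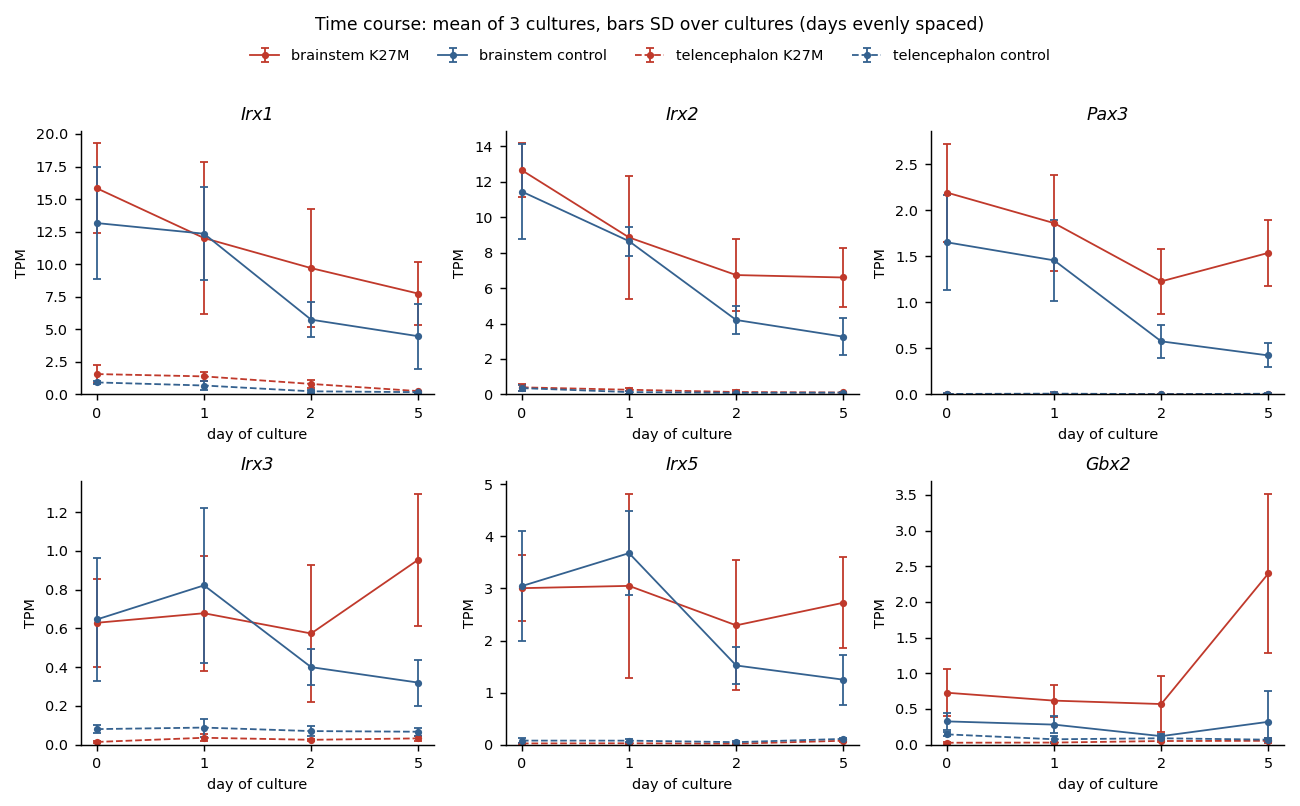
Mean TPM over 3 cultures, with the SD over cultures as bars, of Irx1, Irx2, Pax3, Irx3, Irx5 and Gbx2 at days 0, 1, 2 and 5 (evenly spaced), in brainstem (solid) and telencephalon (dashed) of K27M (red) and control (blue). In brainstem K27M and control lie close together at day 0 for Irx1, Irx2, Irx3 and Irx5, and by day 5 the K27M mean of all 6 genes is the higher, for Gbx2 2.40 TPM in K27M against 0.319 TPM in control.

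Other members of the same families were mostly not expressed. Of 10 (Irx4, Irx6, Pax1, Pax2, Pax4, Pax5, Pax6, Pax8, Pax9 and Gbx1), 3 could be tested, and in brainstem against telencephalon 3, 3, 2 and 2 of them were higher in K27M and 3, 3, 3 and 1 in control, with none lower. The shares of all genes higher in brainstem were 10.8%, 15.6%, 8.59% and 15.5% in K27M and 15.8%, 25.1%, 18.8% and 21.6% in control. Pax6, a factor of dorsal forebrain and of hindbrain progenitors, averaged 3.28 TPM in brainstem K27M against 1.60 TPM in telencephalon K27M, and 2.37 TPM in brainstem control against 1.19 TPM in telencephalon control. Pax6 was higher in brainstem by 0.78, 1.1, 1.43 and 0.90 (log2) at the 4 days in K27M and by 0.96, 1.70 and 0.98 at days 0, 1 and 2 in control, and it was higher in brainstem K27M than in brainstem control at day 5 by 0.87. In the K27M comparisons, 0, 0, 0 and 1 of the 3 family genes passed in brainstem and 0, 1, 0 and 0 in telencephalon, all higher. Of all genes, 11.3%, 28.8%, 26.1% and 38.6% passed in brainstem and 15.7%, 28.8%, 32.3% and 22.3% in telencephalon, in either direction.

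Other patterning genes of the midbrain, hindbrain and dorsal neural tube went both ways between the regions. Of 24, 15 were tested, and 4, 5, 3 and 3 were higher and 4, 5, 4 and 4 lower in brainstem in K27M at the 4 days, with 5, 7, 5 and 4 higher and 3, 4, 3 and 4 lower in control. Their median log2 fold change was 0.07, -0.26, -0.10 and 0.04 in K27M and 0.43, 0.76, 0.02 and -0.32 in control. The medians of all genes, and the shares higher in brainstem, are given above for the same comparisons. Of all 19769 genes tested, 2209, 2675, 2281 and 3365 were lower in brainstem in K27M at the 4 days. In control 4032, 5728, 3838 and 4243 were lower. Otx1, which marks forebrain and midbrain, averaged 0.00700 TPM in brainstem K27M against 0.484 TPM in telencephalon K27M, and 0.00653 TPM in brainstem control against 0.164 TPM in telencephalon control. It was lower in brainstem in all 8 comparisons, with log2 fold changes of -6.52 to -3.53. Sp8, a rostral patterning factor, had log2 fold changes of -7.40 to -5.07 in K27M, and Msx1, a target of dorsal BMP signals, was higher by 1.78, 2.15, 2.14 and 1.58 at the 4 days in control. Cnpy1, a gene of the midbrain-hindbrain boundary beside En2, fell in brainstem K27M by 0.75 at day 0, 1.03 at day 1 and 1.15 at day 5, and rose in telencephalon K27M by 1.78 at day 2. In brainstem K27M against control 0, 1, 1 and 3 of the 15 were higher and 2, 4, 1 and 6 lower, and in telencephalon 3, 5, 5 and 2 were higher and 4, 2, 3 and 3 lower. The shares of all genes that passed in either direction were 11.3%, 28.8%, 26.1% and 38.6% in brainstem. They were 15.7%, 28.8%, 32.3% and 22.3% in telencephalon.

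The genes annotated with a start within 50 kb of a member were higher in brainstem like the members. Of 9 such genes 6 were tested, and all 6 were higher in brainstem in all 8 comparisons, beside the shares of all genes given above. Gm20554 has its start at -256 bases from that of Irx2 and runs away from it on the other strand, next to the Irx2 promoter window printed above, and it averaged 0.663 TPM in brainstem K27M against 0.0247 TPM in telencephalon K27M and 0.565 TPM in brainstem control against 0.0244 TPM in telencephalon control. Its log2 fold change ran from 4.36 to 5.13. D130058E05Rik overlaps the start of Gbx2 and its promoter window on the other strand, and Crnde starts at -1505 bases from Irx5 and runs in the opposite direction. D130058E05Rik rose in brainstem K27M at day 5 by 1.77 ± 0.24 and fell in telencephalon K27M by 1.73, 1.51, 1.21 and 1.06 at the 4 days. The effects differed by 2.12, 1.81, 1.69 and 2.83. Crnde rose in brainstem K27M at day 5 by 1.05 ± 0.20, fell in telencephalon K27M by 1.14, 1.22 and 0.90 at days 0, 1 and 2, and its effects differed by 1.60, 1.32, 1.30 and 1.38. The day 5 brainstem values of these neighbours include the control wells in which most genes were detected. They are not given without those wells or in summed counts. In all, 0, 0, 1 and 3 of the 6 were higher in brainstem K27M at the 4 days with none lower, and 3, 3, 2 and 1 were lower in telencephalon K27M with none higher. Beside these stand 11.3%, 28.8%, 26.1% and 38.6% of all genes in brainstem, in either direction, and 15.7%, 28.8%, 32.3% and 22.3% in telencephalon. Irx3os, which overlaps Irx3 on the other strand, averaged 0.0448 TPM in brainstem K27M against 0.00410 TPM in telencephalon K27M and 0.0380 TPM in brainstem control against 0.00671 TPM in telencephalon control. Its log2 fold change between regions ran from 1.90 to 4.80, and it did not pass in any comparison of K27M with control or in their difference. The library kit kept the strand, but the reads were divided between overlapping transcripts by a model, so values of overlapping partners are not fully separate measurements.

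The pattern of each gene over the 48 means of region, genotype, culture and day was set beside that of every other tested protein-coding gene by Pearson's r on log2 CPM, as a description, since all genes share the same libraries. Pax3 was most like Hoxa2 (0.992), Hoxb2 (0.989) and Hoxa4 (0.989). Irx2 was most like Hoxa2 (0.971), Hoxa4 (0.969) and Hoxa5 (0.964), and Irx5 was most like Hoxa2 (0.970), Skap2 (0.969) and Hoxa4 (0.969). Irx3 was most like Skap2 (0.958), Hoxa2 (0.930) and Hoxa4 (0.930), and Irx1 most like Lgr5 (0.940), Hoxa2 (0.923) and Zic1 (0.922). The Hox genes mark position along the hindbrain and spinal cord, and Skap2 lies beside the Hoxa cluster. The Engrailed genes and Gbx2 had weaker partners. Gbx2 was most like Hoxd3 (0.871), Skap2 (0.861) and Cabp7 (0.845), and En2 most like Nkx3-2 (0.867), Cdkn2a (0.785) and Pou4f1 (0.681). En1 was most like Vax2 (0.754), Hoxd9 (0.735) and Prdm8 (0.702). Among the 8 themselves, Irx5 and Pax3 (0.975), Irx1 and Irx2 (0.968) and Irx3 and Irx5 (0.963) were closest. En2 was farthest from the others, at 0.120 with Irx1 and 0.124 with Gbx2, its closest being En1 (0.664).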

How the data were processed

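The authors quantified each stranded total RNA library (paired-end) with Salmon 1.10.1 on mm10, per the labels and the study's methods, with corrections for sequence and GC bias, and deposited per transcript the estimated counts of read pairs, the TPM and the effective length in bases. Salmon divides reads between similar or overlapping transcripts by a model, so values of paralogs and of overlapping antisense genes are uncertain. Transcripts were joined to genes through the GRCm38 annotation (139821 of 141084 matched; the rest held 0.252 to 0.377% of a library), expected counts of a gene's transcripts were added and rounded to integers, and TPM were added likewise. The deposited TPM describe levels, and the deposited effective lengths served as an alternative offset. Depth was 26.6 to 455 M read pairs a library, and the filter on low counts kept 19769 genes.

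All 142 libraries were fitted together with edgeR 4.0.16 in R 4.3.3 (quasi-likelihood test, TMM scaling, 16 groups, and culture number within region as a block, since the study's methods put the culture in the model). P-values were adjusted by Benjamini-Hochberg over all tested genes in each of 24 comparisons, with a threshold of 0.05, and are two-sided. The script was tested on simulated data. Same-numbered K27M and control cultures of one region deviated together in 22 of 24 pairs at a correlation over 0.1 (median 0.239), and cultures of the same number in brainstem and telencephalon in 14 of 24 (median 0.108). Alternatives were DESeq2 1.42.0, other scalings, no filter, a length offset, passage, no block, counts summed per culture and each culture left out. Leaving out the deepest library and the brainstem control day 5 wells of cultures 41 and 42 was added after seeing the data. The members, the gene lists and the markers were chosen with earlier results of these data known. All 9 members are named in every comparison, with up to 4 genes of each list that pass, have a mean of 1 CPM or more and the largest change, and the 3 genes most like each member. Some marker genes are not reported here. Tables were handled with Python 3.11.15.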

Additional observations from a re-analysis of the deposited data

Results flagged for a closer look

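In 10 of 128 groups of 8 or 9 libraries, 1 library stood apart from the others in the level of a gene. Chance alone gives about 1 in 20 groups for independent values with a normal spread. Wells of the same culture are not independent, so that rate is only a rough guide here. In each of the 10 the library that stood apart was the highest, and 9 were in telencephalon. Irx1 was 0.443 TPM in a telencephalon K27M well of culture 38 at day 5, with 0.292 TPM next, and 1.70 TPM in a telencephalon control well of culture 41 at day 0, with 0.996 TPM next. That control well also held the highest Irx2, 0.871 TPM with 0.440 TPM next. Irx2 was 0.354 TPM in a telencephalon K27M well of culture 42 at day 5, with 0.162 TPM next. In telencephalon control, Irx3 was 0.223 TPM in a well of culture 38 at day 1 (next 0.117 TPM), Gbx2 0.243 TPM in a well of culture 41 at day 1 (next 0.0751 TPM) and Pax3 0.0292 TPM in a well of culture 41 at day 5 (next 0.0132 TPM). In telencephalon K27M, Irx5 was 0.0613 TPM in a well of culture 42 at day 0 (next 0.0256 TPM), and En2 was 1.96 TPM at day 5 (next 1.00 TPM) in the same culture 38 well that was high in Irx1. En1 was 0.0681 TPM in a brainstem K27M well of culture 41 at day 5, with 0.0327 TPM next.

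The effect of K27M differed between brainstem and telencephalon by the test of the difference itself in 17 of 32 cases (log2, brainstem effect minus telencephalon effect). At day 0 these were Gbx2 (3.91), Irx3 (2.70) and Irx5 (1.91). At day 1 they were Gbx2 (2.82), Pax3 (2.17), Irx5 (1.27), Irx3 (1.08) and Irx1 (-1.08). At day 2 they were Gbx2 (3.01), Irx5 (1.92), Irx3 (1.87), Irx1 (-1.12) and En1 (-3.20). At day 5 they were Gbx2 (3.02), Irx3 (2.38), Pax3 (2.00) and Irx5 (1.46).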

How the results depend on the processing

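Of 192 tests of the 8 genes 129 passed, 76 of them in each of 13 alternatives and 53 not in at least 1, and of the 63 that did not pass 28 did in at least 1. Counts summed per culture and day moved the number of passed tests most: 6 in place of 20 for K27M against control in brainstem, 9 in place of 18 in telencephalon, 3 in place of 17 for the difference between regions and 12 in place of 19 for day 5 against day 0, with 3 cultures a group and so fewer samples. Without the replicate block by culture number, the numbers were 28 (region in control, 29 with it), 26 (region in K27M, also 26), 19 (K27M in brainstem, 20), 18 (K27M in telencephalon, 18), 17 (difference, 17) and 17 (day 5 against day 0, 19). Leaving out 1 culture gave 26 to 31, 24 to 29, 16 to 22, 16 to 20, 15 to 17 and 19 to 20 for the same comparisons. Direction turned in 4 tests, whose cause was not tested: En2, brainstem against telencephalon in control at day 1, was -0.33 with passage as a covariate (adjusted p = 0.421); En1, the same comparison in K27M at day 1, was -0.62 without culture 41 (adjusted p = 0.537); Pax3, K27M against control in telencephalon at day 1, was 0.40 without culture 41 (adjusted p = 0.825); and Gbx2, day 5 against day 0 in brainstem control, was -1.56 without culture 38 (adjusted p = 1.93e-05). With the other cultures left out, these values ranged up to 3.34 (En1), down to -3.25 (Pax3) and up to 1.02 (Gbx2). RLE and library size scaling turned no passed test round. Pax7, En1 and the telencephalon levels of Pax3, Irx3, Irx5 and Gbx2 rest on few counts a library, which limits the precision of their ratios.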
